A study of Mus musculus with 10 samples.

Results

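The ERK feedback genes are 10 mouse genes that were taken by name, with no threshold on their values: Dusp4, Dusp5, Dusp6, Spry1, Spry2, Spry4, Spred1, Spred2, Etv4 and Etv5. All 10 were found among the 50600 genes of the expression files, and all 10 passed the filter on low counts that left 11028 genes to test. The study followed mouse embryonic fibroblasts (MEFs) during reprogramming to pluripotency by bulk RNA-seq. The fibroblasts came from E13.5 embryos of CBA/CaJ X C57BL/6J parents and carried an Oct4-GFP reporter according to the methods of the study. All cells received the reprogramming factors Oct4, Klf4 and Sox2 (OKS) by retrovirus. After infection they were induced in iCD1, a defined reprogramming medium, whereas the MEFs themselves were kept in a medium with serum. The paper does not state whether day 0 cells were taken before the change of medium, and its effect was not tested. A further retrovirus carried either FoxO6 (OKS + FoxO6) or, as control, DsRed, a red fluorescent protein that the labels shorten to DR (OKS + DR). Each arm gave 1 library on each of days 0, 1, 3, 5 and 7, so there are 10 libraries and no replicate of an arm on a day. FoxO6 was thus expressed from a virus, and no sorting of infected cells is named for these libraries.

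The ERK pathway carries a signal from a growth factor and its receptor through Ras and the kinases Raf, MEK and ERK to the nucleus. Active ERK switches on transcription factors such as Etv4 and Etv5, and also genes whose proteins damp the pathway: the DUSP phosphatases remove phosphate from ERK, and the Sprouty and Spred proteins act between the receptor and Raf. Because these genes depend on ERK activity in many cell types, their messages are often read as a gauge of the pathway, although the kinases' own activity is not measured by RNA-seq. In mouse embryonic stem cells, FGF signalling through ERK is known for driving cells out of the naive pluripotent state.

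The libraries held between 1208379 and 2225750 expected counts (estimated read counts per gene), with a median of 1601151. Both extremes fell on day 0, the lowest in OKS + DR and the highest in OKS + FoxO6. OKS + FoxO6 was the deeper arm on days 0, 1, 3 and 5, and OKS + DR on day 7. Foxo6 itself checks the labels: it had 1 to 4 reads per library in OKS + DR and 1743 to 3375 reads in OKS + FoxO6. Levels are given as TPM, a measure of transcript share that corrects for transcript length, and each level rests on 1 library. Their 95% intervals come from the Poisson error of the expected count and cover counting error only. In bulk RNA, fewer cells of a type and less RNA per cell cannot be told apart.

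Averaged over the 10 libraries, Etv5 stood highest at a TPM of 109.8 and Spry1 lowest at 11.6. The order between them was Etv4 (85.1), Spry4 (80.6), Dusp6 (80.1), Spred2 (78.5), Spry2 (69.0), Dusp4 (48.3), Spred1 (45.6) and Dusp5 (14.5). Each gene in this order overlapped its neighbour in range over the libraries. Compared within a library, Spred1 was above Dusp5 in all 10, while the other neighbours changed order between libraries. The ranges were 51.9 to 198 for Etv5, 15.0 to 82.0 for Dusp4, 5.55 to 29.4 for Dusp5 and 6.01 to 21.2 for Spry1. Even Spry1 exceeded 81.3% of all genes in mean TPM. The summed TPM of the 10 genes was 386, 574, 751, 717 and 738 on days 0, 1, 3, 5 and 7 of OKS + DR. The same sum in OKS + FoxO6 was 499.5, 596, 692, 761 and 517. The sums of both arms were therefore higher on day 5 than on day 0, and the OKS + FoxO6 sum was back near its day 0 value on day 7.

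**Figure D1:**
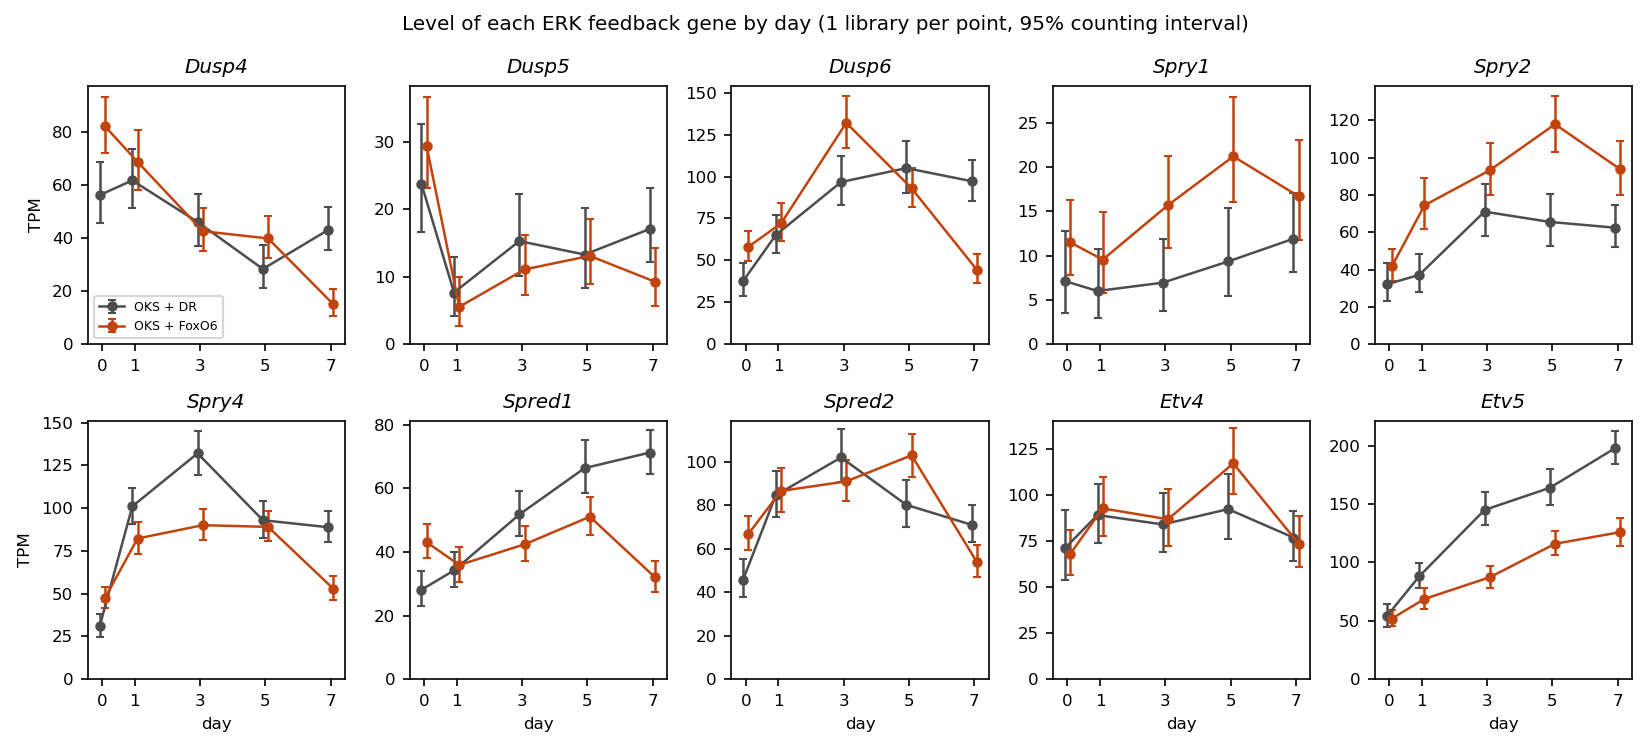
Level of each gene in TPM (vertical axis, from 0) by day (horizontal axis) in OKS + DR (grey) and OKS + FoxO6 (orange), with 1 library per point and bars for the 95% Poisson counting interval. Spry1 and Spry2 lie above the control on all 5 days, Etv5 lies below it on all 5 (on day 0 by less than the counting error), Dusp5 is lowest on day 1 in both arms, and Dusp4, Dusp6 and Spred1 separate on day 7.

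The 3 DUSP genes encode phosphatases that inactivate MAP kinases. Dusp4 and Dusp5 act in the nucleus and Dusp6 in the cytoplasm. On GRCm38, Dusp4 lies on chromosome 8 from 34807297 to 34819894 on the plus strand, Dusp5 on chromosome 19 from 53529109 to 53542431 on the plus strand, and Dusp6 on chromosome 10 from 99263231 to 99267489 on the plus strand. No exon of another annotated gene overlaps Dusp4 or Dusp6, while AC137853.2 overlaps an exon of Dusp5 on the opposite strand.

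Dusp4 had a TPM of 56.1, 61.6, 46.0, 28.3 and 43.0 on days 0, 1, 3, 5 and 7 of OKS + DR. With FoxO6 its TPM was 82.0, 68.6, 42.5, 39.8 and 15.0, lower on each day than on the day before. The OKS + FoxO6 library of day 7 was the lowest of the 10, with 36 reads, and the ranges of both arms overlapped. Over both arms, Dusp4 fell by 1.25 on the log2 scale from day 0 to day 7 (standard error 0.36; edgeR's quasi-likelihood test with Benjamini-Hochberg adjustment, adjusted p = 0.0298).

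Dusp5 dropped at the first step. Its TPM in OKS + DR was 23.8 on day 0, 7.67 on day 1, 15.3 on day 3, 13.3 on day 5 and 17.1 on day 7. In the FoxO6 arm the values on the same days were 29.4, 5.55, 11.1, 13.1 and 9.26. Day 1 was the lowest day of both arms and day 0 the highest, with 14 and 11 reads on day 1. Relative to day 0, Dusp5 fell by 2.15 on day 1 on the log2 scale (standard error 0.36), a 4.44-fold decrease (edgeR, adjusted p = 0.00917), and this call was kept under all 6 alternatives. On day 7 it was still lower than on day 0, at -1.03 on the log2 scale (standard error 0.32, edgeR adjusted p = 0.0434), but that call was lost with DESeq2 (adjusted p = 0.258) and without day 1, 3 or 5 (adjusted p = 0.0605, 0.0632 and 0.0633).

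The promoter of Dusp5 is shown because this gene had the largest change from day 0 to day 1 among the 10, and because it holds 3 kinds of motif that growth factor signals are known to act through. The sequence is that of RefSeq on GRCm38.p6, chr19:53528895-53529194, plus strand, from 250 bases before the annotated start to 50 after it. Capitals mark, in order, an ETS core (GGAAGT or its reverse complement), a pair of adjoining CArG boxes, the sites of serum response factor, and a cyclic AMP element core (TGACGT or its reverse complement).
Dusp5: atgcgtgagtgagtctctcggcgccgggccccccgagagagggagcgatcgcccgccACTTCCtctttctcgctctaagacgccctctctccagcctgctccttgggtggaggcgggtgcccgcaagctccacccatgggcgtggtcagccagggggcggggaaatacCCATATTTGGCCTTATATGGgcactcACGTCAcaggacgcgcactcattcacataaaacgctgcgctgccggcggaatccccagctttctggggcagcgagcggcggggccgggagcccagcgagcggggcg
The search covered both strands of 32851 promoters of this length, of which 23.8% held the ETS core, 7.51% the cyclic AMP element core and 1.63% a CArG box. The motifs of this promoter start at bases 58, 169, 179 and 195 of the window and do not overlap. A match is a description of the letters and not a measured binding site.

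Dusp6 was higher with FoxO6 on days 0, 1 and 3 and lower on days 5 and 7. Its TPM in OKS + DR was 37.7, 65.1, 96.7, 105 and 97.2 on days 0, 1, 3, 5 and 7. In OKS + FoxO6 it was 58.1, 72.0, 132, 93.0 and 44.4. The control library of day 7 was 2.58 times that of day 0, while with FoxO6 the day 7 value was 0.765 times the day 0 value. Dusp6 passed neither the test between the arms (log2 fold change -0.04, standard error 0.19, edgeR adjusted p = 0.923) nor that between days (edgeR adjusted p = 0.173).

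The Sprouty proteins inhibit signalling downstream of receptor tyrosine kinases. Spry1 lies on chromosome 3 from 37639947 to 37644598 on the plus strand, Spry2 on chromosome 14 from 105891947 to 105896819 (minus strand), and Spry4 on chromosome 18 from 38586247 to 38601415 (minus strand). An exon of Gm42922 overlaps Spry1 on the opposite strand, and the expected count of Spry1 was whole (within 0.005 of a whole number) in only 5 of the 10 libraries, so part of its reads was shared out between genes. By the same tolerance, the expected counts of the other 9 genes were whole in all 10 libraries.

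Spry2 was higher in OKS + FoxO6 on all 5 days. Its TPM in the control arm was 32.1, 37.2, 71.1, 65.6 and 62.5 on days 0, 1, 3, 5 and 7. With FoxO6 it was 41.7, 74.5, 93.3, 118 and 93.8. The counting intervals of the arms did not include an equal level on days 1, 3, 5 and 7, and did on day 0. The shift over the 5 days was 0.63 on the log2 scale (standard error 0.15), or 1.54-fold, and passed the test (edgeR, adjusted p = 0.0168).

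Spry1 moved the same way at a lower level. It had a TPM of 7.13, 6.01, 6.95, 9.34 and 11.9 in OKS + DR, from 11 to 31 reads, and of 11.5, 9.55, 15.7, 21.2 and 16.7 in OKS + FoxO6, from 19 to 53 reads. OKS + FoxO6 was the higher arm on all 5 days, and the arms' ranges overlapped when days were pooled. The counting intervals included an equal level on days 0, 1 and 7 and did not on days 3 and 5. The shift was 0.80 (standard error 0.22) on the log2 scale, or 1.74-fold (edgeR, adjusted p = 0.0384).

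Spry4 had its lowest value of each arm on day 0. Its TPM was 30.8, 101, 132, 92.9 and 88.8 on days 0, 1, 3, 5 and 7 of OKS + DR. The values of the FoxO6 arm were 47.3, 82.2, 90.0, 89.0 and 52.8, above the control on day 0 and below it on the other days. Spry4 rose 2.11-fold from day 0 to day 1 over both arms (log2 fold change 1.07, standard error 0.25, edgeR adjusted p = 0.038), a call lost without day 3 (adjusted p = 0.0597) and without day 5 (adjusted p = 0.0682). It did not pass the test between the arms (log2 fold change -0.25, standard error 0.16, edgeR adjusted p = 0.346).

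The promoters of Spry1 and Spry2 are shown because both genes were higher in the FoxO6 arm and FoxO factors bind forkhead motifs. The RefSeq windows on GRCm38.p6 are chr3:37639697-37639996 on the plus strand and chr14:105896770-105897069 on the minus strand, both written 5′ to 3′. Neither holds the forkhead motif GTAAACA, the ETS core, the cyclic AMP element core or a CArG box on either strand, so nothing is in capitals, which says only that these letters are not in these windows.
Spry1: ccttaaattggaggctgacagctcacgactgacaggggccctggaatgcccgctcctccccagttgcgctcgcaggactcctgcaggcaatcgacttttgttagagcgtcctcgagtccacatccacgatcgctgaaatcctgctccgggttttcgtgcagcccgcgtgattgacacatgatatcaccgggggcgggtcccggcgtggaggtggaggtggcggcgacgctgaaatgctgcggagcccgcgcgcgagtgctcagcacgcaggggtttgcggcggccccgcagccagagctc
Spry2: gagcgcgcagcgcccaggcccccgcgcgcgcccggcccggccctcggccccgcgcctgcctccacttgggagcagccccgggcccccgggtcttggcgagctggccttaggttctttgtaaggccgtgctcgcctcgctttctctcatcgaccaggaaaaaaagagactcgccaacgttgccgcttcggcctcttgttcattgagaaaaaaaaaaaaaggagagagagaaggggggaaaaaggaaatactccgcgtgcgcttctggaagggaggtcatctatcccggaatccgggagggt
A promoter was at hand for 7 of the 10 genes, with 8 starts in all. The promoter of Spred2 held an ETS core and a cyclic AMP element core, and those of Spred1 and Dusp6 held none of the 4 motifs.

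The Spred proteins, relatives of the Sprouty proteins, restrain the pathway at the level of Ras, and Spred1 recruits neurofibromin, a Ras inactivator, to the membrane. Spred1 lies on chromosome 2 from 117121374 to 117182279 on the plus strand and Spred2 on chromosome 11 from 19924375 to 20024026 on the plus strand. Spred1 had a TPM of 28.1, 34.2, 51.8, 66.4 and 71.3 in OKS + DR, higher on each day than on the day before. In OKS + FoxO6 it was 43.1, 35.9, 42.4, 51.1 and 32.0, with no steady order over the days. Fitted within each arm, the slope of Spred1 was 0.19 per day on the log2 scale in OKS + DR (standard error 0.03, edgeR adjusted p = 0.00784) and 0.01 in OKS + FoxO6 (standard error 0.03, edgeR adjusted p = 0.851). Spred2 had a TPM of 45.8, 84.6, 102, 80.2 and 71.0 in OKS + DR and of 66.8, 86.6, 91.0, 103 and 53.9 in OKS + FoxO6, with its lowest value on day 0 in the control and on day 7 with FoxO6. It passed no test, with an adjusted p of 0.70 between the arms (edgeR) and of 0.138 between days.

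Etv4 and Etv5 are ETS transcription factors of the PEA3 group and carry ERK signals to other genes. Etv4 lies on chromosome 11 from 101769742 to 101785371 (minus strand) and Etv5 on chromosome 16 from 22381309 to 22439719 (minus strand). Etv5 had a TPM of 53.7, 88.1, 145, 164 and 198 on days 0, 1, 3, 5 and 7 of OKS + DR. With FoxO6 it had 51.9, 68.7, 87.3, 116 and 126. Its level was higher on each day than on the day before in both arms, and the FoxO6 arm was the lower one on all 5 days on the TPM scale. Day 0 was the exception on CPM, which scales read counts to library size, where the fold of OKS + FoxO6 over OKS + DR was 1.03 (95% counting interval 0.82 to 1.3), and this fold was 0.589 (0.509 to 0.683) on day 3.

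Etv5 rose by 1.70 on the log2 scale from day 0 to day 7 (standard error 0.21), a 3.26-fold increase (edgeR, adjusted p = 0.000225). Its shift between the arms was -0.45 (standard error 0.13, edgeR adjusted p = 0.0434). Etv4 varied least over the 10 libraries: its TPM was 71.0, 89.0, 83.9, 92.2 and 76.8 in OKS + DR and 67.8, 92.6, 86.7, 117 and 73.5 in OKS + FoxO6, and day 5 was the highest day of both arms on this scale. Its shift was -0.01 (standard error 0.13, edgeR adjusted p = 0.978). The effective length that RSEM gave Etv4 varied between 1265 and 1825 bases over the libraries, more than for the other genes relative to its length, so its TPM and its CPM can differ: on day 5 the difference between the arms was 0.34 in log2(TPM + 1) and 0.00 on the log2 CPM scale.

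Both annotated starts of Etv5 are shown because it had the largest fitted change of the 10 from day 0 to day 7 over both arms and is the only one of the 10 whose TPM was lower in the FoxO6 arm on all 5 days. The RefSeq windows on GRCm38.p6 are chr16:22439521-22439820 (start A) and chr16:22438319-22438618 (start B), minus strand, written 5′ to 3′. Capitals mark the forkhead motif GTAAACA in the first and the ETS core GGAAGT in the second.
Etv5 start A: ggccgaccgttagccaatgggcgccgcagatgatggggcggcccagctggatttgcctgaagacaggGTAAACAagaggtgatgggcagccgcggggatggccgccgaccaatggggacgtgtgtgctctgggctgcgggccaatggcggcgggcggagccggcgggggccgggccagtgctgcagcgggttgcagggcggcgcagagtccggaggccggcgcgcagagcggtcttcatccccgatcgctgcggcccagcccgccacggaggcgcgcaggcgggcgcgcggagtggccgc
Etv5 start B: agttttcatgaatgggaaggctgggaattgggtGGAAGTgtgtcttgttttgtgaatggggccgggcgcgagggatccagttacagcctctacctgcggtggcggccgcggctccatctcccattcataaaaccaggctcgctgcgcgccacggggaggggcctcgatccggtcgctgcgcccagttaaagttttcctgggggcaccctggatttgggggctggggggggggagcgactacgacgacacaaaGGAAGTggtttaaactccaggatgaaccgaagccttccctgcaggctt
The forkhead motif was found in 1199 of the 32851 promoters (3.65%) and, among the 8 windows at hand, in that of Etv5 start A alone. Binding of FoxO6 was not measured here.

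Between the arms over the 5 days, 3 of the 10 genes passed the test at an adjusted p under 0.05: Spry1 and Spry2 were higher and Etv5 lower in OKS + FoxO6. Of the 11028 genes tested, 6.86% were called higher and 7.09% lower. The median log2 fold change of the 10 genes was -0.05, against -0.02 over all genes tested, and 3 of the 10 were above 0. Nothing states that an arm was infected anew for each day, so these p-values describe the 2 time courses and not independent infections. The 3 calls depended on single days and on the tool. DESeq2 kept Spry2 alone (adjusted p = 0.0459) and gave 0.267 for Spry1 and 0.0552 for Etv5, and the Spry2 call was lost without day 1 (0.062), without day 5 (0.0853) and with no day term in the model (0.318). The Spry1 call was lost without day 0 (edgeR adjusted p = 0.0503), day 1 (0.0718), day 3 (0.138) or day 5 (0.166) and with no day term (0.236). That of Etv5 was lost without day 1 (edgeR adjusted p = 0.109), day 3 (0.21), day 5 (0.184) or day 7 (0.056) and with no day term (0.571). The direction of all 3 was kept under all 9 alternatives, with log2 fold changes of 0.55 to 0.70 for Spry2, 0.72 to 0.88 for Spry1 and -0.56 to -0.35 for Etv5.

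**Figure D2:**
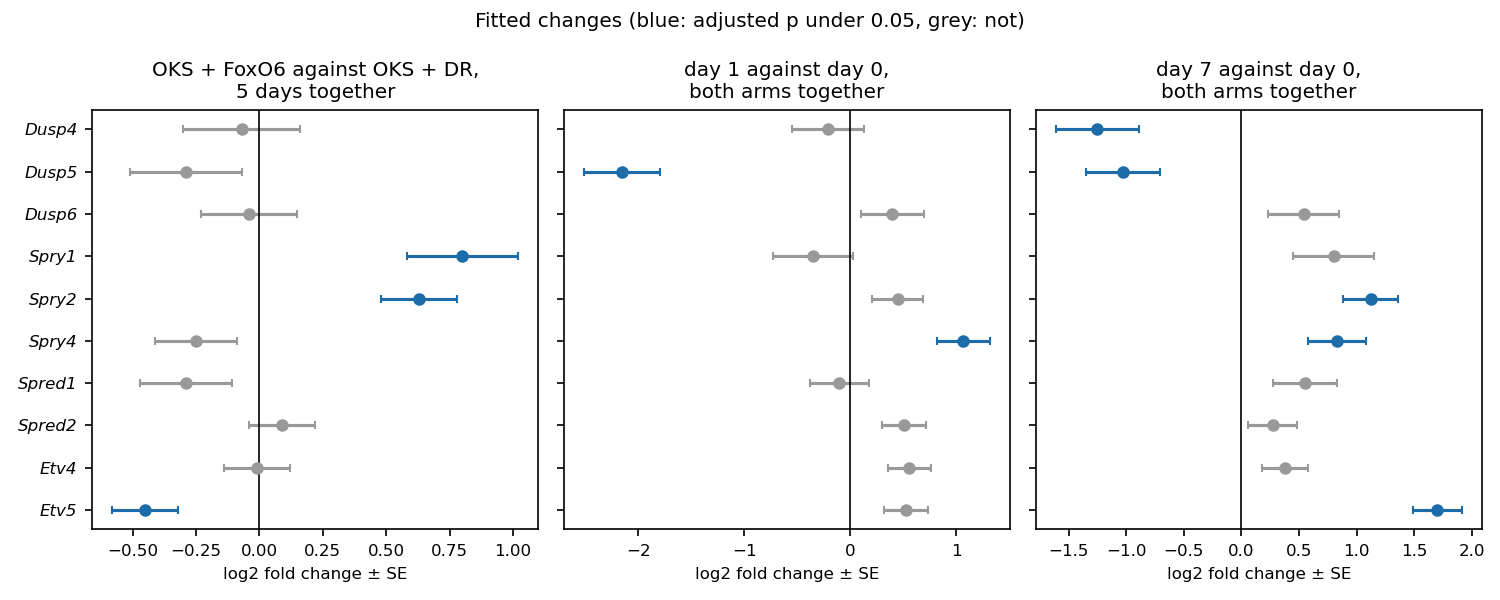
Fitted log2 fold changes with their standard errors (horizontal axis) for the 10 genes, for OKS + FoxO6 against OKS + DR over the 5 days, for day 1 against day 0 and for day 7 against day 0. Blue marks an adjusted p under 0.05: Spry1, Spry2 and Etv5 between the arms, Dusp5 and Spry4 on day 1, and Dusp4, Dusp5, Spry2, Spry4 and Etv5 on day 7.

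Along the course, Dusp5, Spry2, Spry4 and Etv5 differed between days (edgeR's F test over the 4 day terms, adjusted p = 0.011, 0.0145, 0.023 and 0.00113), 4 of 10 beside 19.5% of all genes tested. From day 0 to day 1, Spry4 was called higher, where 2.26% of all genes were, and Dusp5 lower, where 1.92% were. From day 0 to day 7, Spry2, Spry4 and Etv5 rose, beside 11.2% of all genes, and Dusp4 and Dusp5 fell, beside 9.97%. Spry2 rose by 1.12 (standard error 0.24, edgeR adjusted p = 0.00585) and Spry4 by 0.83 (standard error 0.25, adjusted p = 0.0374). The median change of the 10 genes by day 7 was 0.55 with both arms together, against 0.03 over all genes tested. The arms differed in this: the median slope of the 10 genes was 0.11 per day on the log2 scale in OKS + DR and 0.02 in OKS + FoxO6. With FoxO6, the TPM of Dusp4, Dusp5, Dusp6, Spred1 and Spred2 was lower on day 7 than on day 0. In OKS + DR this held for Dusp4 and Dusp5 only. Without day 0 the test between days called Etv5 alone, with an edgeR adjusted p of 0.26 for Dusp5, 0.174 for Spry2 and 0.384 for Spry4. The call of Dusp5 between days was also lost with DESeq2 (adjusted p = 0.0587) and without day 1 (edgeR adjusted p = 0.0686). Dusp4, which did not pass this test, did so with DESeq2 (adjusted p = 0.0387), without the filter (edgeR adjusted p = 3.09e-06) and without day 7 (0.00589), and Dusp6 did so without the filter (0.0124) and without day 7 (0.0123). Without day 1, 3 or 5, Spry4 on day 7 had adjusted p = 0.0651, 0.0558 and 0.0691.

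On single days the arms were compared without a test, by subtracting log2(TPM + 1) of OKS + DR from that of OKS + FoxO6, which makes the change of a low gene look smaller than it is. The day 0 difference was above 0 for 8 feedback genes and had a median of 0.54, while the median over the 15011 genes whose mean TPM reached 1 was 0.09. None of the 10 passed 2-fold on that day, on which 10.6% of all genes were more than 2-fold higher and 6.41% lower. The difference was 0.62 for Spry1, 0.61 for Dusp6, 0.60 for Spry4 and Spred1 and -0.05 for Etv5. On CPM, the day 0 median of the 10 genes was 0.36 and all 10 were above 0, with Etv4 at 0.16 (-0.07 on TPM) and Etv5 at 0.04.

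On day 1 the median difference was 0.06 and no gene of the 10 passed 2-fold, beside 8.1% of all genes higher and 9.43% lower. Spry2 came closest at 0.98, a CPM fold of 1.98 (95% counting interval 1.43 to 2.75). Day 3 had a median of -0.14, with Spry1 past 2-fold at 1.07, beside 8.21% of all genes higher and 11.8% lower. Day 5 had a median of 0.16 (-0.03 on CPM), again with Spry1 past 2-fold at 1.10, beside 10.3% higher and 11.4% lower.

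On day 7 the difference was below 0 for 8 of the 10 genes (7 on CPM, where Etv4 was at 0.09), the exceptions being Spry1 at 0.45 and Spry2 at 0.58, and the median was -0.70. On day 3 it was below 0 for 6 of the 10 on TPM and for 7 on CPM. The median over all genes was itself -0.14 on day 7 on the TPM scale, so the 10 genes stood 0.56 below it. On CPM the medians were -0.56 and -0.01. Dusp4 (-1.46), Spred1 (-1.13) and Dusp6 (-1.11) were more than 2-fold lower, beside 16.5% of all genes more than 2-fold lower and 8.3% higher. Relative to the median of all genes, these values were -1.32, -0.99 and -0.97, and on the log2 CPM scale they were -1.33, -1.04 and -0.93, so Dusp6 passed 2-fold on TPM alone. Spry4 (-0.74) and Etv5 (-0.65) also had a counting interval below an equal level.

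**Figure D3:**
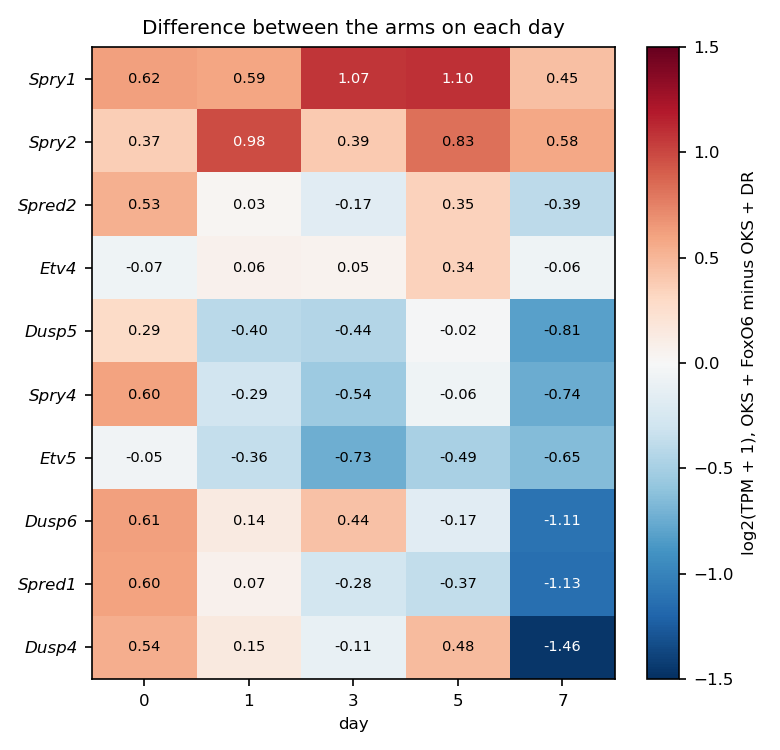
Difference between the arms on each day (columns) for each gene (rows), OKS + FoxO6 minus OKS + DR in log2(TPM + 1), with red for higher and blue for lower with FoxO6 and the value in each cell. Spry1 and Spry2 are positive on all 5 days, Etv5 is negative on all 5 (0.04 on day 0 on the log2 CPM scale), and on day 7 the other 7 genes are negative as well (Etv4 at -0.06, and at 0.09 on the log2 CPM scale).

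Whether the difference between the arms moved steadily with time was tested as an arm by day slope. None of the 10 genes passed, and 0% of the 11028 genes did in edgeR's quasi-likelihood test. At an unadjusted p under 0.05 there were 2 of the 10 genes and 954 of all genes, and DESeq2 called 34 genes and none of the 10. The genes with an unadjusted p under 0.05 were Spred1, with a slope difference of -0.17 per day (standard error 0.05, edgeR adjusted p = 0.456), and Dusp4, with -0.18 (standard error 0.07, edgeR adjusted p = 0.52). Within OKS + DR, Spred1 and Etv5 had a slope that passed, both upward, beside 10.9% of all genes. Within OKS + FoxO6, Etv5 again passed upward and Dusp4 downward, at -0.29 per day (standard error 0.05, edgeR adjusted p = 0.00986), beside 8.9% of all genes. As a plain ratio of 2 libraries, the TPM of day 7 over day 0 was above 1 in OKS + DR and below 1 in OKS + FoxO6 for Dusp6 (2.58 and 0.765), Spred1 (2.54 and 0.742) and Spred2 (1.55 and 0.807). For Etv5 it was 3.69 and 2.42, for Spry2 1.94 and 2.25, for Spry4 2.88 and 1.12, and for Dusp4 0.767 and 0.183. A slope that passed in 1 arm was not shown to differ from that of the other arm.

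The 10 genes did not move as a block over the libraries. Among their 45 pairs, Pearson's r of log2(TPM + 1) over the 10 libraries was above 0.5 in 15 and below 0 in 15, given here as a description of libraries that share 2 time courses. Dusp6, Spry4 and Spred2 were alike, with r of 0.81 for Dusp6 with Spry4, 0.81 for Dusp6 with Spred2 and 0.89 for Spry4 with Spred2. Spry1 and Spry2 were another pair (0.77), and Spred1 was closest to Dusp6 (0.75) and Etv5 (0.74). Dusp4 and Dusp5 stood apart: Dusp4 had r of -0.62 with Etv5 and -0.56 with Spry2, and Dusp5 had -0.51 with Etv4 and -0.47 with Spry4.

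**Figure D4:**
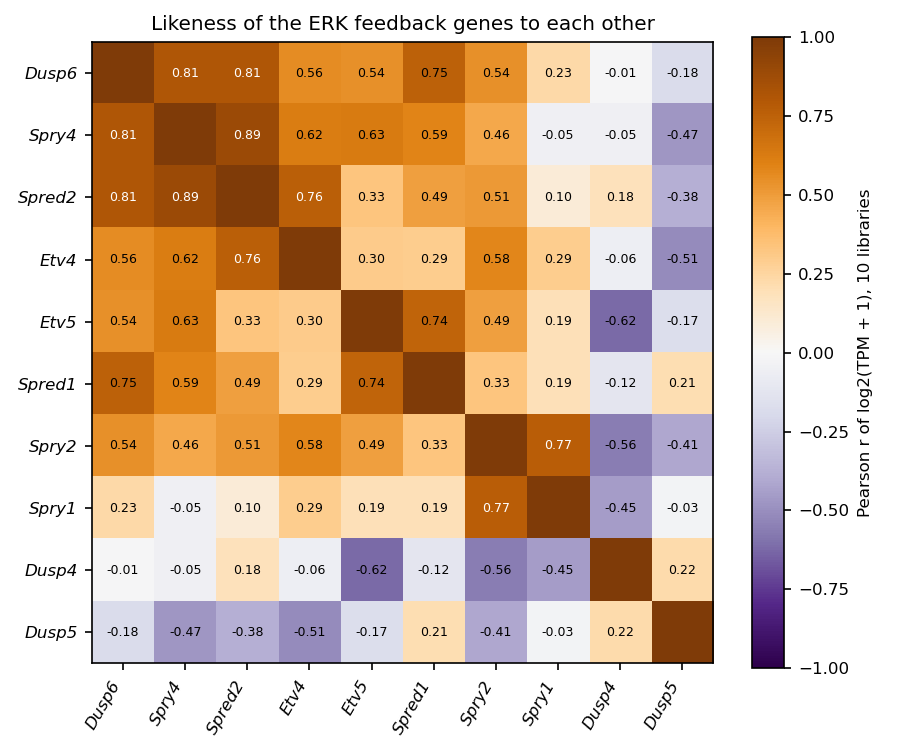
Pearson's r of log2(TPM + 1) over the 10 libraries for each pair of the 10 genes, from purple (negative) to brown (positive), with the value in each cell. Dusp6, Spry4 and Spred2 form a block of 0.81 to 0.89, Spry1 and Spry2 a pair at 0.77, and most values of Dusp4 and Dusp5 are below 0.

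Outside the 10 genes, among the 11491 genes whose mean TPM reached 5, the highest likeness to Spry2 was that of Tek (r = 0.987), the receptor of angiopoietins, and Cobl (0.967), an actin nucleator, was also among the nearest. Spry1 was most like Gpnmb (0.959), Lgmn (0.951), a lysosomal protease, and Hscb (0.927). Etv5 was most like Sox13 (0.988), an SRY-box transcription factor, Sms (0.984), the spermine synthase, and 2300002M23Rik (0.982). Dusp6 was most like Prr14l (0.983), Arid2 (0.967), a chromatin remodelling subunit, and March6 (0.961), and Spry4 was most like Mavs (0.975), Pde7a (0.971) and Ncoa7 (0.967). Spred1 was nearest to Aebp2 (0.956), Slc23a2 (0.954) and Zfp36l1 (0.953), and Spred2 to Tnrc6a (0.969), Rcbtb1 (0.965) and Clock (0.96). Dusp4 was nearest to Zfp518b (0.97), Tmem206 (0.97) and Galnt1 (0.963). Etv4 and Dusp5 had the weakest neighbours, with Pcdhga11 (0.93), Dnajc16 (0.919) and Cdk6 (0.915) for Etv4 and Unc5b (0.919), Dusp12 (0.905) and Ddx10 (0.903) for Dusp5. Of the 30 genes chosen this way, 10 were the same when CPM replaced TPM.

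The rest of the ERK pathway was described with a list of 96 other genes, of which 95 were found (Spry3 was not) and 76 could be tested. Between the arms, 12 of the 76 were higher in OKS + FoxO6 and 7 lower, beside the 6.86% higher and 7.09% lower of all genes tested, so the count of lower genes was near that background. The counts of the groups that follow stand beside the same shares. Among the ligands, 3 of the 6 tested were higher and none lower: Kitl, the ligand of Kit, by 1.46 (standard error 0.19), Fgf2 by 1.44 (0.27) and Tgfa, a ligand of the EGF receptor, by 1.24 (0.29). Their TPM was low, at 0.82 to 12.8 for Fgf2 and 1.31 to 5.69 for Tgfa, while Kitl reached 39.7. The expected count of Fgf2 was not whole in any library, so part of its reads was shared out between genes. Of 8 receptors, 4 were higher and none lower: Erbb3 by 2.14 (0.20), Met, the receptor of hepatocyte growth factor, by 1.53 (0.22), Egfr by 0.79 (0.17) and Fgfr2 by 0.54 (0.15).

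Further down, 1 of the 10 adaptors was higher, Gab2 at 0.81 (standard error 0.19), and 1 lower, the ubiquitin ligase Cbl at -0.64 (0.18). Of the 12 Ras proteins and their inactivators, Rasa3, a Ras GTPase activating protein, was higher at 1.14 (0.19), and the other 11 did not pass. None of the 15 kinases and scaffolds of the cascade passed between the arms. Mapk3, which encodes ERK1, had a shift of 0.13 (standard error 0.13).

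Among 10 other negative regulators, 3 were higher and 2 lower. Il17rd, also known as Sef, an inhibitor of FGF signalling, was higher by 1.59 (standard error 0.14), Errfi1, an inhibitor of the EGF receptor, by 0.87 (0.19) and the phosphatase Dusp1 by 0.78 (0.22). Lrig1, which promotes the loss of EGF receptors, was lower at -0.74 (0.15), and Dusp7 was the other gene lower. Of 15 other targets of the pathway, 4 were lower and none higher: Ccnd1, which encodes cyclin D1, at -0.91 (0.11), Epha2 at -1.14 (0.17), Phlda1 at -1.12 (0.17) and the ETS factor Elk3 at -0.75 (0.12). The median shift of the 15 was 0.07, against -0.02 over all genes tested, so the targets as a group were not lower. From day 0 to day 7, 9 of the 76 genes rose and 19 fell, beside 11.2% and 9.97% of all genes tested, so the count of rising genes was near that background. The targets were 6 of those that fell, with a median of -0.61 over the 15 tested, while the 10 feedback genes had a median of 0.55. Both medians take the arms together.

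Markers of several cell types differed along the course and between the arms. The summed TPM of 5 epithelial markers was 12.1 on day 0 and 639 on day 7 in OKS + DR, and 3.66 and 138 in OKS + FoxO6. For 6 markers of pluripotent cells the day 7 sums were 272 and 35.9. The 7 fibroblast markers summed to 3974 on day 0 and 689.5 on day 7 in OKS + DR, and to 3482 and 1006 in OKS + FoxO6. The higher day 7 sum with FoxO6 came from Col1a2 (TPM of 758 against 262), while Col1a1 (78.8 against 98.2), Col3a1 (102 against 190.0) and Prrx1 (34.8 against 115) were lower in that library. Between the arms over the 5 days, Prrx1 and Col3a1 passed the test, both lower with FoxO6 (log2 fold change -0.78 and -0.64), and the other 5 did not pass. All 3 epithelial markers tested passed as lower with FoxO6: Cdh1 (-3.12), Krt8 (-2.06) and Epcam (-1.86). All 7 fibroblast markers fell from day 0 to day 7, and all 3 epithelial markers tested rose. Etv5 and Spry2 rose over the same days and Dusp4 fell, and on day 7 the OKS + FoxO6 library was lower in the epithelial and pluripotent sums and in 8 of the feedback genes. The part of these markers in the results was not tested.

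The lists of other cell types were each led by 1 gene. The macrophage genes Ptprc, Csf1r, Adgre1 and C1qa had a TPM between 0 and 0.93 in all libraries, with C1qa at 0 on every day of OKS + DR, and Lyz2 had 0.79 to 6.17. The summed TPM of the 6 macrophage markers was 14.1 to 55.8 in OKS + DR and 18.0 to 30.0 in OKS + FoxO6, mostly from Cd68. Of the 5 endothelial markers, which summed to 18.7 to 53.0 and 30.3 to 104, Tek supplied most, and Cdh5, Tie1 and Emcn were between 0 and 1.58, with Emcn at 0 on every day of OKS + DR. Pecam1 reached 5.73 (18 reads) on day 7 of OKS + DR, against 0.76 with FoxO6, and was between 0 and 1.58 in the other libraries. The 4 neural markers summed to 52.1 to 425 in OKS + DR and 14.6 to 80.6 in OKS + FoxO6, mostly from Nefl, a neurofilament gene. Between the arms over the 5 days, Nefl passed as lower with FoxO6 (log2 fold change -2.80) and Tek as higher (0.95). Cd68 and the 1 other neural marker tested did not pass.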

How the data were processed

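Bulk RNA-seq of 10 libraries was grouped by the labels into 2 arms and 5 days. The authors aligned reads with RSEM and Bowtie2 (build mm10), and the deposited expected counts are RSEM's estimated counts per gene without normalization. The authors also deposited TPM from the same tool, which corrects for effective length. A series table holds 48476 of the 50600 genes with identical expected counts. The labels name a VAHTS library kit and the methods of the study a TruSeq kit. Whether reads were counted by strand is not given in the sources used here.

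Rounded expected counts were fitted with edgeR 4.0.16 in R 4.3.3 (TMM, filterByExpr, common dispersion 0.034) by the quasi-likelihood test. The model held day as a factor plus arm (4 residual degrees of freedom), or arm, day as a number and their product (6). Benjamini-Hochberg adjustment ran over all 11028 genes and the threshold was an adjusted p of 0.05. DESeq2 1.42.0 was an alternative. The fits were also run on counts simulated with the common dispersion alone, a simpler setting than these data, and the outcome is not reported here. Single days were compared by log2(TPM + 1) without a test, with a threshold of 2-fold. Folds of CPM (TMM) have exact Clopper-Pearson 95% intervals. The rest was computed with pandas 2.3.3, numpy 2.4.6 and scipy 1.17.1 in Python 3.11.15, and drawn with matplotlib 3.10.9. Coordinates are GENCODE M21 on GRCm38, the build of mm10, and promoters come from RefSeq on GRCm38.p6.

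The genes described and the gene lists were chosen with earlier results of these data known. The genes named are the 10 feedback genes, up to 3 genes with the highest Pearson r per feedback gene, up to 4 genes per pathway group by lowest p among those that passed, or else by highest TPM, and Foxo6. Dusp7 falls outside this rule and was named after its values were seen, to complete a count. The cell type markers that are named singly also fall outside it and come from the marker lists. Alternatives were RLE size factors, no filter, no day term, the rank of the day, each day left out, a pseudocount of 0.1, CPM and other TPM filters. The slopes within each arm and the CPM folds per day were added after seeing the data. Some genes that this rule names are not reported here.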

Additional observations from a re-analysis of the deposited data

How the results depend on the processing

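At a depth of 1208379 to 2225750 expected counts, Dusp5 and Spry1 rest on as few as 11 reads in a library, and each arm and day has 1 library. The arms were paired by day through the day term. Leaving out each day in turn gave 0 to 2 feedback genes called between the arms and 655 to 1545 genes in all, against 3 and 1538. It gave 1 to 6 feedback genes and 1056 to 2474 genes between days, against 4 and 2147. For day 1 against day 0 it gave 1 to 2 and 300 to 929, against 2 and 461. For day 7 against day 0 it gave 3 in each case and 1965 to 2110, against 5 and 2333. For the slope it gave 0 feedback genes and 0 to 1 genes in all, against 0 and 0. DESeq2 called 1 feedback gene between the arms and 34 genes for the slope. Without a day term, 0 feedback genes and 169 genes were called between the arms. Without the filter, 3804 genes were called between days, 1104 on day 1 and 10 for the slope. With a pseudocount of 0.1, 1 gene of the 10, Spry2, passed 2-fold on day 1. Without a TPM filter the share of all genes past 2-fold was 7.29%, 7.6%, 8.55%, 9.33% and 10.3% on days 0, 1, 3, 5 and 7, against 17%, 17.5%, 20%, 21.7% and 24.8%. On CPM, 10 of the 30 most alike genes were shared. Signs turned for values that passed no test: the shift of Dusp4 without a day term (0.03) or without day 7 (0.20, lowest -0.20), of Dusp6 without day 7 (0.18, lowest -0.17) and of Etv4 without the filter (0.03), without day 1 (0.00) or day 3 (0.06, lowest -0.05). The slope of Spry1 ran from -0.0244 to 0.108 over the days left out (-0.0022 and -0.0149 without days 1 and 5), that of Spry2 from -0.00555 to 0.0889, and that of Etv4 from -0.0272 to 0.0309 (-0.00304 without day 1) and to -0.00137 on the rank of the day. The cause of these changes was not tested.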
